A study of Homo sapiens with 6 samples.

Results

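The IFIT family, the interferon-induced proteins with tetratricopeptide repeats, was followed at the mRNA level in BxPC-3, a line long established from a human pancreatic cancer. Its members IFIT1, IFIT2, IFIT3 and IFIT5 were taken by gene symbol, and all 4 were present among the 26255 symbols of each of the 6 files. The 3 groups held 2 libraries each: parent cells with no treatment, cells given the negative control RNA NC-1, and cells given the microRNA miR-4711-5p. Per the paper, RNA was given by transfection, miR-4711-5p as 2 complementary strands, and cells were compared 36 h after it. Parent cells thus differ from both other groups by the transfection as well as by the RNA. All libraries came from the same line, so the parent and NC-1 cells shared its whole background with the cells that received the microRNA. The labels do not say whether the 2 libraries of a group came from separate cultures, and the p-values therefore measure only the spread between these libraries, which may be technical. The values are FPKM, fragments scaled by the exon length of the gene and by the size of the library. Absolute depth is unknown, and depth estimated relative to the library parent 1 ran from 0.751 to 1.21.

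IFIT genes have very low activity in most resting cells and are transcribed when type I or type III interferon, or an RNA sensor in the cytoplasm, signals to the nucleus. Interferon activates a complex that holds STAT2 and IRF9 and that binds the interferon-stimulated response element in IFIT promoters, and IRF3 can bind the same element without interferon. The proteins then hold back foreign RNA. IFIT1 grips capped RNA that lacks the methyl mark on its first nucleotide and blocks its translation, IFIT2 and IFIT3 assemble with IFIT1, IFIT3 stabilizes IFIT1, and IFIT5 works alone and binds RNA with an exposed triphosphate end.

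The 4 genes lie on the plus strand of chromosome 10, within 138 kb. In GRCh37, IFIT2 (ENSG00000119922.11) spans chr10:91043451-91069028, IFIT3 (ENSG00000119917.15) spans chr10:91087064-91137230, IFIT1 (ENSG00000185745.10) spans chr10:91152303-91166244 and IFIT5 (ENSG00000152778.10) spans chr10:91174325-91181362. Each canonical transcript had 2 exons, with a coding sequence of 1437 nt in IFIT1, 1419 nt in IFIT2, 1473 nt in IFIT3 and 1449 nt in IFIT5. The coding sequences were thus alike in length, while the 3′ UTR ran from 840 nt in IFIT3 to 2775 nt in IFIT1. Read on the transcript strand, no stretch of 75 bases in these transcripts also occurred in a transcript of another gene, out of 4228 such windows in IFIT1, 3319 in IFIT2, 2316 in IFIT3 and 3955 in IFIT5. Matches to the opposite strand of other transcripts were not searched.

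The promoters are shown because the members moved together. Sequences are from RefSeq (GRCh38.p14), plus strand, from 250 bases before to 50 bases after an annotated transcript start, and the promoter table matched 3 of the 4 members, IFIT1, IFIT3 and IFIT5. Capitals mark TTTCNNTTTC, which is GAAANNGAAA on the opposite strand, the core of the interferon-stimulated response element. IFIT3 has 2 annotated starts and 2 windows.
IFIT1, chr10:89392373-89392672: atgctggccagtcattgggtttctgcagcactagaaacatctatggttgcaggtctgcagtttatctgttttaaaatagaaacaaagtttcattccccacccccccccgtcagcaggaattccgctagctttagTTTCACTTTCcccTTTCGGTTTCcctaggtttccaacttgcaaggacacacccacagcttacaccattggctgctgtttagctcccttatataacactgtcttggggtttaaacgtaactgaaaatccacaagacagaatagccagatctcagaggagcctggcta
IFIT3, chr10:89327747-89328046: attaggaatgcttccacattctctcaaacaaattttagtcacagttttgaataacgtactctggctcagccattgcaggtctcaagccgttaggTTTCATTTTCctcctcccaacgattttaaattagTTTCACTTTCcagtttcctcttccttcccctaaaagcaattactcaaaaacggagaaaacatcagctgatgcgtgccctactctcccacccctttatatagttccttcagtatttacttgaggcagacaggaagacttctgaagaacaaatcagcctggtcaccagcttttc
IFIT3, chr10:89332279-89332578: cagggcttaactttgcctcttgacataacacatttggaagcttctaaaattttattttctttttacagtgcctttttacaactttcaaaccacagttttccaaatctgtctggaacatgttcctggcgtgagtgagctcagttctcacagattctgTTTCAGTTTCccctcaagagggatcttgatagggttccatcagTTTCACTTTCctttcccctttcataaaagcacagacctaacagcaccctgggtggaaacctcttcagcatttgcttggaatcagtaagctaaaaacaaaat
IFIT5, chr10:89414318-89414617: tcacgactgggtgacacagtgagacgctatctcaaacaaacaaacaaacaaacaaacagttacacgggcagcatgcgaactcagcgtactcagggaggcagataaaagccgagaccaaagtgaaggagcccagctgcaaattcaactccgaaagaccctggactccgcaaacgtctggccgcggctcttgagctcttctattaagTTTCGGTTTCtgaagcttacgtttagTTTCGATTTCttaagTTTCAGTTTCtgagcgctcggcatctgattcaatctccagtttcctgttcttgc

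The IFIT1 window held the motif at 116 and 103 bases before the start. In IFIT3, one window held it at 156 and 122 bases and the other at 94 and 51 bases before the start. In IFIT5 it stood at 45, 19 and 4 bases before the start. Searched on both strands, the motif was present in 1255 of 35116 promoters (3.57%), and among the tested genes that had a promoter there, 352 of 8975 (3.92%) held it at least once and 39 held it 2 or more times. All 3 matched members were of the latter kind. Among the other antiviral effectors listed below 10 of 16 had it, among the RNA sensors and adaptors 3 of 6, among the JAK-STAT and IRF factors 0 of 5, and among the genes around the IFIT locus 1 of 10. A match to these letters is a description of the sequence and not a measured binding site.

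The microRNA itself is shown because its seed, bases 2 to 8 (capitals), is what pairs with a target mRNA. The sequence is from RefSeq (GRCh38.p14, chr1:59733269-59733291, minus strand).
hsa-miR-4711-5p: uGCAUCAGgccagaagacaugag

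Sites for this seed were searched as CTGATGC (pairing with the whole seed) and as TGATGCA (pairing with bases 2 to 7 and followed by A). None of the 4 canonical IFIT 3′ UTRs held one, whereas 1810 of 10568 tested genes with a canonical 3′ UTR (17.1%) did. The only site in the 4 transcripts was in the coding sequence of IFIT3 at chr10:91099470-91099476 (GRCh37), which is ggaagtccCTGATGCtgaaaagc in its surroundings (the site in capitals).

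IFIT mRNA rose in the cells given miR-4711-5p. All 4 members were higher than in parent and in NC-1 cells, by 2.79-fold to 7.82-fold against parent and by 2.56-fold to 7.35-fold against NC-1, as ratios of mean FPKM. The rise was largest in IFIT1 and smallest in IFIT5. Differences were tested on log2(FPKM + 1) with limma in the 12040 genes that averaged 1 FPKM or more, and all 4 members passed that filter. A log2 fold change on this scale understates the change of low genes. In both comparisons limma called all 4 members higher at an adjusted p of 0.05, while it called 18.7% of all tested genes higher against parent and 18.4% higher against NC-1. With values rescaled by the median ratio over genes of at least 10 FPKM, these backgrounds were 25.3% and 20.1%, and the 4 members were again called higher. Both miR-4711-5p libraries were above all 4 other libraries in every member, and in 23.8% of all tested genes. In bulk RNA, more cells with a high level and a higher level per cell cannot be told apart.

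IFIT1, the cap sensor of the family, measured 10.3 and 9.43 FPKM in the parent libraries, 11.0 and 9.96 FPKM in the NC-1 libraries and 81.4 and 72.7 FPKM in the miR-4711-5p libraries. The 2 miR-4711-5p libraries stood far above the other 4, and the parent and NC-1 libraries overlapped. The mean was 77.1 ± 6.12 FPKM (SD, n = 2) with miR-4711-5p, 9.86 ± 0.597 FPKM in parent cells and 10.5 ± 0.730 FPKM with NC-1. The log2 fold change against parent was 2.85 (95% interval 2.66 to 3.03, limma adjusted p = 2.81e-06), which placed IFIT1 at rank 12 from the highest of the 12040 tested genes. Against NC-1 it was 2.76 (2.58 to 2.95, limma adjusted p = 3.18e-06), at rank 8.

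IFIT2, a partner of IFIT1 and IFIT3 that has been linked to the death of infected cells, measured 19.5 and 19.1 FPKM in parent cells, 22.3 and 22.7 FPKM with NC-1 and 67.5 and 60.4 FPKM with miR-4711-5p. The 3 groups did not overlap, and the step from NC-1 to miR-4711-5p was much the larger. The log2 fold change was 1.68 against parent (1.53 to 1.82, limma adjusted p = 4.73e-06), a ratio of mean FPKM of 3.32. Against NC-1 it was 1.46 (1.32 to 1.61, limma adjusted p = 8.56e-06), a ratio of 2.84. IFIT2 ranked at 61 from the highest in both comparisons.

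IFIT3, which stabilizes IFIT1, had the highest level of the family in every library. It measured 31.3 and 29.3 FPKM in parent cells, 34.7 and 39.1 FPKM with NC-1 and 128 and 112 FPKM with miR-4711-5p. Again the 3 groups did not overlap. The log2 fold change was 1.95 against parent (1.76 to 2.14, limma adjusted p = 6.75e-06), a ratio of mean FPKM of 3.96, at rank 46. Against NC-1 it was 1.67 (1.48 to 1.87, limma adjusted p = 1.40e-05), a ratio of 3.25, at rank 41.

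IFIT5, the member that acts without partners, had the lowest level in every library. It measured 4.83 and 5.84 FPKM in parent cells, 5.64 and 6.0 FPKM with NC-1 and 15.4 and 14.4 FPKM with miR-4711-5p. Parent and NC-1 libraries overlapped, and both miR-4711-5p libraries were above them. The log2 fold change was 1.33 against parent (1.12 to 1.54, limma adjusted p = 4.57e-05), a ratio of mean FPKM of 2.79, at rank 118. Against NC-1 it was 1.22 (1.01 to 1.43, limma adjusted p = 8.10e-05), a ratio of 2.56, at rank 98.

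**Figure D1:**
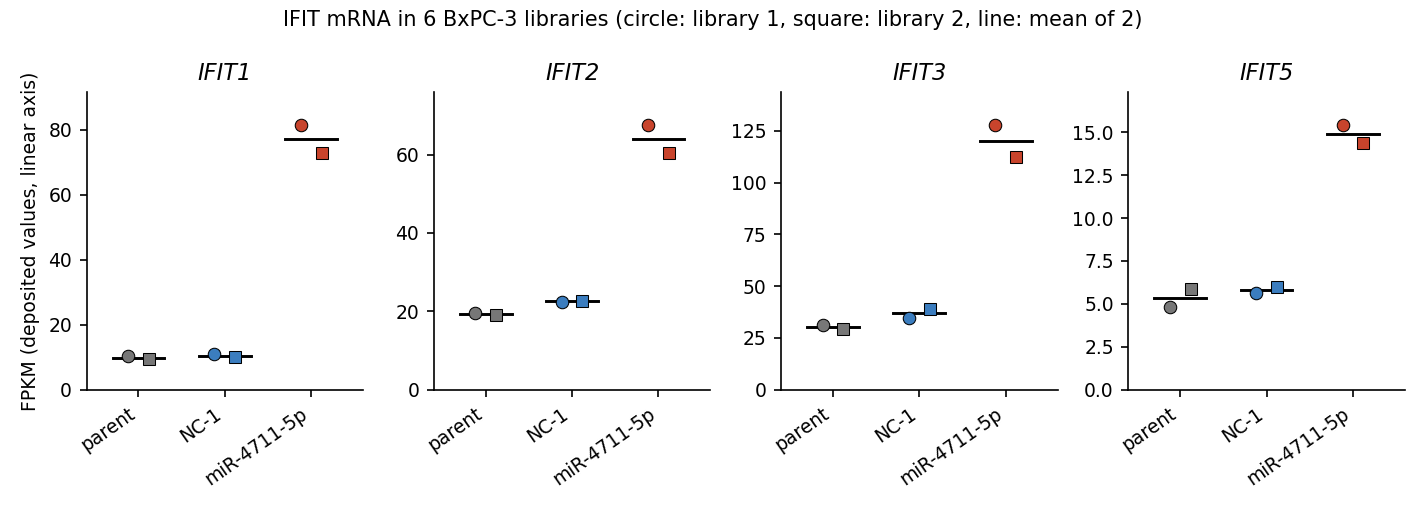
FPKM (vertical axes, linear, with a scale of its own for each gene) of the 4 IFIT genes in each of the 6 libraries, by group (circle for library 1, square for library 2, line for the mean). The miR-4711-5p libraries are above all parent and NC-1 libraries in every gene, from 14.4 FPKM in IFIT5 to 128 FPKM in IFIT3.

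The 2 miR-4711-5p libraries differed in the same direction in all 4 members. The value in library 1 divided by that in library 2 was 1.12 in IFIT1, 1.12 in IFIT2, 1.14 in IFIT3 and 1.07 in IFIT5, against a median of 1.0 over all tested genes. Of the 20 other antiviral effectors, 18 were also higher in library 1, with a median ratio of 1.07. In the parent libraries the same ratio ran from 0.828 in IFIT5 to 1.09 in IFIT1, and in the NC-1 libraries from 0.887 in IFIT3 to 1.10 in IFIT1, with members on both sides of 1. The distance between the 2 miR-4711-5p libraries was small beside that between groups.

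NC-1 alone was accompanied by much smaller differences from parent. IFIT2 was 1.17-fold higher (log2 fold change 0.21, 95% interval 0.07 to 0.36, limma adjusted p = 0.0403). IFIT3 was 1.22-fold higher (0.28, interval 0.08 to 0.47, limma adjusted p = 0.0445). Both NC-1 libraries were above both parent libraries in these 2 members, as they were in 31.3% of all tested genes, and limma called 12.1% of all tested genes higher (16.6% after the rescaling). IFIT1 (log2 fold change 0.08, interval -0.10 to 0.26, limma adjusted p = 0.472) and IFIT5 (0.11, interval -0.10 to 0.32, limma adjusted p = 0.388) did not pass the test, and their groups overlapped. The intervals allow at most a log2 difference of 0.26 in IFIT1 and 0.32 in IFIT5. The calls in IFIT2 and IFIT3 were close to the threshold: leaving out parent 1, parent 2, NC-1 1 or NC-1 2 ended the call in IFIT2 (limma adjusted p from 0.113 to 0.140), and leaving out any 1 of the 6 libraries ended it in IFIT3 (limma adjusted p from 0.0525 to 0.195).

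**Figure D2:**
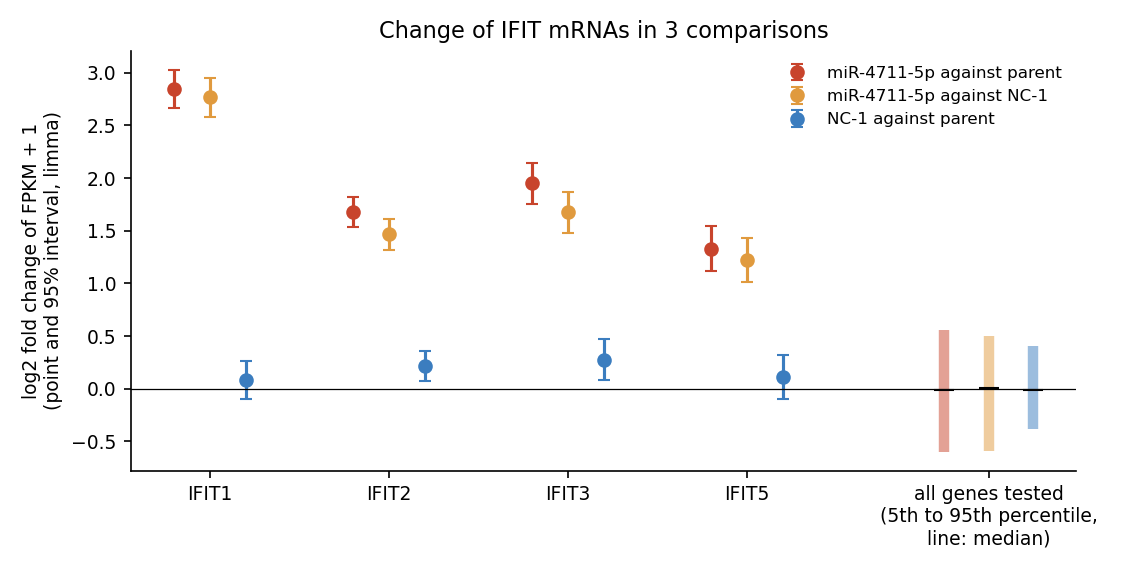
Log2 fold change of the 4 IFIT genes in the 3 comparisons (points, with 95% intervals from limma), with the range from the 5th to the 95th percentile of all 12040 tested genes beside them. Against parent, the 4 values with miR-4711-5p run from 1.33 to 2.85, while the 95th percentile of all genes is 0.56.

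Summed over the 4 members, the family reached 65.9 and 63.6 FPKM in parent cells, 73.6 and 77.8 FPKM with NC-1, and 292 and 259.8 FPKM with miR-4711-5p. The mean sum was 64.8 ± 1.60 FPKM in parent cells, 75.7 ± 2.98 FPKM with NC-1 and 276 ± 22.8 FPKM with miR-4711-5p (SD, n = 2). The added FPKM relative to parent came mostly from IFIT3 (89.7) and IFIT1 (67.2), followed by IFIT2 (44.7) and IFIT5 (9.55). IFIT3, the gene with the highest level at the start, thus added the most FPKM, and IFIT1 had the largest ratio.

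The make-up of the family shifted with miR-4711-5p. IFIT1 made up 15.6% and 14.8% of the summed IFIT FPKM in parent cells, 14.9% and 12.8% with NC-1 and 27.9% and 28.0% with miR-4711-5p. The shares of the other 3 members were lower in both miR-4711-5p libraries than in the 4 others. IFIT2 fell from between 29.2% and 30.2% in the parent and NC-1 libraries to 23.1% and 23.3%, IFIT3 from between 46.0% and 50.3% to 43.7% and 43.2%, and IFIT5 from between 7.33% and 9.18% to 5.28% and 5.53%.

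The order of the levels changed with these shares. In all 4 parent and NC-1 libraries it was IFIT3, IFIT2, IFIT1, IFIT5 from high to low, and in both miR-4711-5p libraries IFIT1 was above IFIT2. The ratio of IFIT1 to IFIT2 FPKM was 0.528 and 0.494 in parent cells, 0.494 and 0.438 with NC-1, and 1.21 and 1.20 with miR-4711-5p. The groups did not overlap in this ratio between miR-4711-5p and either other group, but 2 libraries against 2 cannot give a two-sided exact permutation p below 0.333, which was the value found in both comparisons. Which of a pair of genes is higher in FPKM depends on the exon lengths that the authors divided by. A change of the ratio between libraries does not depend on them as long as each gene had a single length in all libraries.

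IFIT1 was also higher relative to IFIT5 and IFIT3. IFIT1 to IFIT5 was 2.13 and 1.62 in parent cells, 1.95 and 1.66 with NC-1 and 5.28 and 5.06 with miR-4711-5p. IFIT3 to IFIT1 was 3.05 and 3.10, 3.16 and 3.93, and 1.57 and 1.54 in the same order. These shifts were of the same direction in both miR-4711-5p libraries. IFIT3 to IFIT2 was between 1.53 and 1.72 in the parent and NC-1 libraries and 1.89 and 1.86 with miR-4711-5p. IFIT2 to IFIT5 was between 3.27 and 4.03 in the former and 4.38 and 4.21 in the latter. IFIT3 to IFIT5 was between 5.01 and 6.52 in the former and 8.29 and 7.81 in the latter. On the log2 scale, the differences from parent in the ratios among IFIT2, IFIT3 and IFIT5 were 0.24 to 0.50, and those in the 3 ratios with IFIT1 were 0.98 to 1.48 in size.

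**Figure D3:**
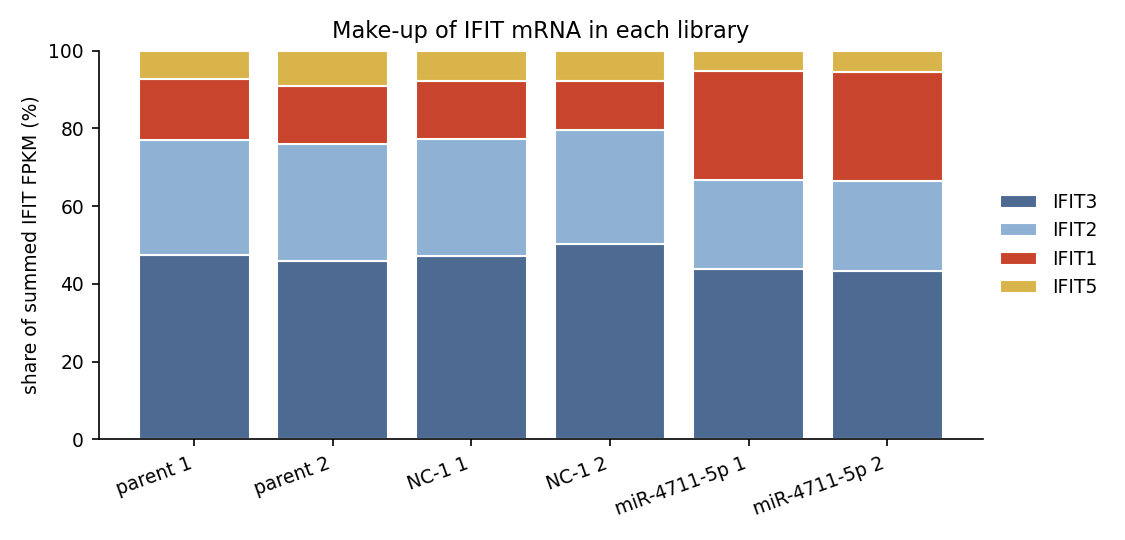
Share of each IFIT gene in the summed FPKM of the family (percent, stacked bars from 0), in each of the 6 libraries. The IFIT1 share is between 12.8% and 15.6% in the parent and NC-1 libraries and 27.9% and 28.0% in the miR-4711-5p libraries.

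As a description with no test, the profile of a gene was taken as its log2(FPKM + 1) minus the mean of the parent libraries, and 2 genes were compared by the Euclidean distance over the 6 libraries. IFIT2 and IFIT3 lay closest to each other among the members (distance 0.409), and IFIT1 and IFIT5 farthest apart (2.16). The 3 genes most like IFIT1 were MX1 (0.551), a GTPase that blocks viral replication, the neutrophil chemokine CXCL3 (0.636) and USP18 (0.650), which removes ISG15 from proteins and damps interferon signaling. IFIT2 was most like OAS1 (0.0938), a sensor of double-stranded RNA, and like SAMHD1 (0.124), which depletes deoxynucleotides. IFIT3 was most like THEMIS2 (0.224), a signaling protein of immune cells, the RNA sensor gene DDX58 (0.315) and SP110 (0.318), a nuclear body protein. THEMIS2 was under 1 FPKM in the parent and NC-1 libraries, where the added 1 FPKM lowers a log2 difference, and its ratio of mean FPKM to parent was 12.5 beside the 3.96 of IFIT3. IFIT5 was most like SAMD9 (0.181), an antiviral factor, the phospholipid scramblase PLSCR1 (0.220) and the mitochondrial phosphatase PPM1K (0.236). The same limit holds for PPM1K (1.09 and 1.10 FPKM in parent cells) and CXCL3 (1.64 and 1.74 FPKM). The ratio of mean FPKM to parent was 4.18 in PPM1K beside 2.79 in IFIT5, and 7.93 in CXCL3 beside 7.82 in IFIT1. In each of the 4 members, the 3 nearest genes lay closer than the nearest other member of the family.

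The tested genes around the locus did not share the size of the IFIT rise. Of 10 neighbours, 7 were tested. Limma called 1 of these higher against parent and 0 lower, beside 18.7% and 24.7% of all tested genes. The median log2 fold change of the 7 was 0.17, against -0.01 over all tested genes. The neighbour called higher was LIPA, a lysosomal lipase on the opposite strand. It measured 26.0 and 26.0 FPKM in parent cells, 27.0 and 26.6 FPKM with NC-1 and 31.0 and 28.8 FPKM with miR-4711-5p. The difference from parent was 0.19 on the log2 scale (limma adjusted p = 0.0209), and that from NC-1 was 0.15 (limma adjusted p = 0.0550). The LIPA annotation runs antisense across IFIT2, IFIT3 and IFIT1, and its exons share 65 of 4326 exon bases of IFIT2 and 94 of 5067 of IFIT3, but none of IFIT1 or IFIT5. The strand setting of the counting is not stated, so reads in these bases could go to either gene.

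IFIT1B, a relative of IFIT1 that lies between IFIT3 and IFIT1, stayed between 0 and 0.0947 FPKM in all 6 libraries. CH25H, an interferon-induced enzyme that makes an antiviral sterol, measured 0.358 and 0.117 FPKM in parent cells and 0.477 and 0.179 FPKM with NC-1. With miR-4711-5p it measured 0.760 and 0.466 FPKM. The ratio of its mean FPKM was 2.58 against parent and 1.87 against NC-1, and its miR-4711-5p libraries overlapped those of NC-1. Neither reached the filter, and neither was tested. Against NC-1, limma called 1 of the 7 tested neighbours higher and 0 lower, beside 18.4% and 21.2% of all tested genes. The 1 called was the death receptor gene FAS (log2 fold change 0.54, limma adjusted p = 0.00565). FAS was also lower with NC-1 than in parent cells (-0.37, limma adjusted p = 0.0366, where 15.1% of all tested genes were called lower). After the rescaling, the latter call was lost. Limma then called 3 of the 7 neighbours higher against NC-1, beside 20.1% of all tested genes.

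**Figure D4:**
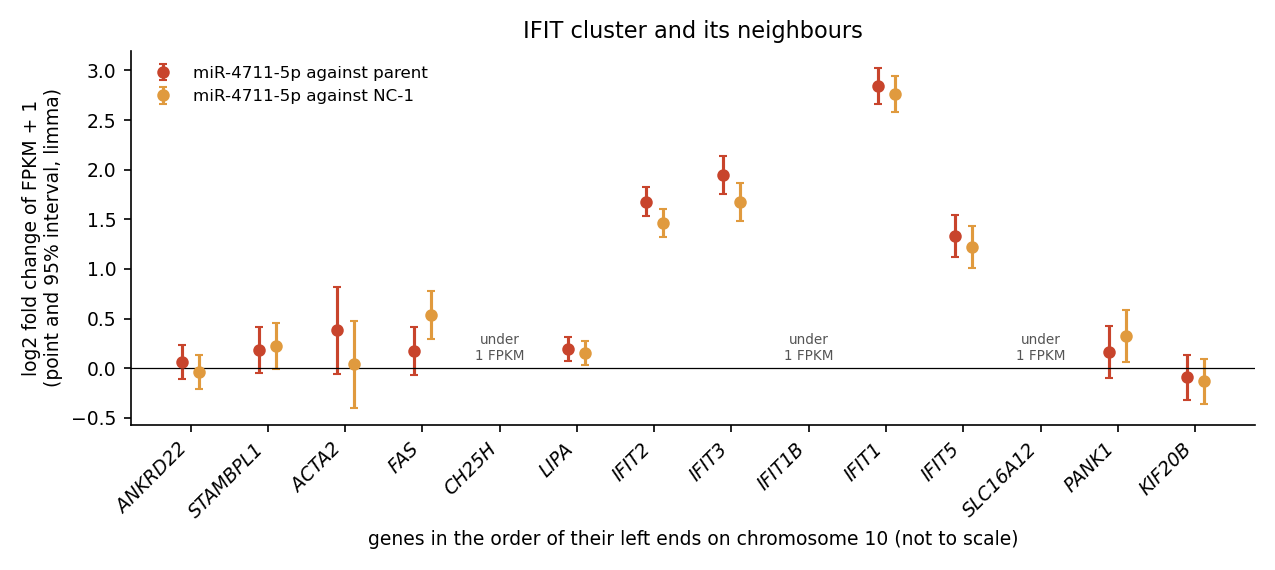
Log2 fold change of miR-4711-5p against parent and against NC-1 (vertical axis, points with 95% intervals from limma) of the IFIT genes and their neighbours, in their order along chromosome 10 and not to scale. Against parent the 4 IFIT genes lie between 1.33 and 2.85, and LIPA, on the opposite strand, at 0.19.

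Among the genes that lead to IFIT transcription, the RNA sensors moved with the family. Of 9 sensors and adaptors, 8 were tested, and limma called 6 higher and 1 lower against parent (median log2 fold change 0.91), and 6 higher and 2 lower against NC-1 (0.77). Of all tested genes it called 18.7% higher and 24.7% lower against parent, and 18.4% higher and 21.2% lower against NC-1. DDX58, which encodes RIG-I, a sensor of short RNA with a triphosphate end, measured 11.3 and 12.4 FPKM in parent cells, 16.4 and 16.1 FPKM with NC-1 and 48.8 and 43.8 FPKM with miR-4711-5p. The 3 groups did not overlap, and the mean was 3.92-fold that of parent cells (limma adjusted p = 4.87e-06) and 2.85-fold that of NC-1 cells (limma adjusted p = 1.35e-05). DDX58 was already 1.37-fold higher with NC-1 than in parent cells (limma adjusted p = 0.00635). In that comparison limma called 2 of the 8 tested sensors and adaptors higher and 0 lower, beside 12.1% and 15.1% of all tested genes. After the rescaling it called 4 of the 8 higher, beside 16.6% of all tested genes. IFIH1, the sensor of long double-stranded RNA, was 3.12-fold higher than in parent cells (limma adjusted p = 4.30e-06). TMEM173, the adaptor STING of the DNA-sensing pathway, was lower at 0.725 of the parent level (limma adjusted p = 0.00119). Against NC-1 the adaptor MAVS was also lower (log2 fold change -0.26, limma adjusted p = 0.00649), but it was at -0.08 against parent (limma adjusted p = 0.271) and higher with NC-1 than in parent cells (0.19, limma adjusted p = 0.0361).

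Transcripts of the interferons themselves were near the lower limit. Of 12 ligand and receptor genes, 5 passed the filter, all of them receptors. IFNB1, the gene of interferon beta, was listed at 0 in the 4 parent and NC-1 libraries and at 0.613 and 0.234 FPKM in the miR-4711-5p libraries. IFNL1, a type III interferon, was at 0.0919 and 0.421 FPKM in parent cells, 0 and 0.214 FPKM with NC-1 and 0.342 and 0.609 FPKM with miR-4711-5p. Its miR-4711-5p libraries overlapped with parent and were above both NC-1 libraries. No test was made at these levels. The miR-4711-5p libraries had the highest estimated relative depth (1.08 and 1.21, beside 0.751 to 1.0 in the parent and NC-1 libraries). The part of depth in these low values was not tested. Of the 5 receptors, limma called 1 higher against parent (IFNGR1, log2 fold change 0.26, limma adjusted p = 0.00610), beside 18.7% of all tested genes. The interferon receptor gene IFNAR1 was at -0.13 (limma adjusted p = 0.104). Against NC-1 limma called 0 higher and 3 lower (IFNAR1, IFNAR2 and IL10RB), and 2 lower after the rescaling, beside the 21.2% of all tested genes called lower. With NC-1 against parent it called 3 of the 5 receptors higher, among them IFNAR1 (0.32, limma adjusted p = 0.00858) and IL10RB (0.18, limma adjusted p = 0.0456). Over all tested genes this share was 12.1%. After the rescaling it called 4 of the 5 higher, beside 16.6% of all tested genes.

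STAT2 and IRF9, of the complex that binds the interferon-stimulated response element, rose with the IFIT genes. STAT2 was 2.32-fold (limma adjusted p = 1.61e-05) and IRF9 2.94-fold higher than in parent cells (limma adjusted p = 3.95e-06). IRF9 measured 26.7 and 26.0 FPKM in parent cells, 36.5 and 38.5 FPKM with NC-1 and 79.6 and 75.4 FPKM with miR-4711-5p. Its groups did not overlap, and it was already 1.42-fold higher with NC-1 than in parent cells (limma adjusted p = 0.00161). Of the 8 tested JAK-STAT and IRF genes, limma called 4 higher and 0 lower against parent (median 0.22), among them STAT2, IRF9 and the kinase gene JAK1. Against NC-1 it called 4 higher and 1 lower (median 0.10), the lower being IRF2 (log2 fold change -0.28, limma adjusted p = 0.00553). Over all tested genes, 18.7% were called higher and 24.7% lower against parent, and 18.4% and 21.2% against NC-1. IRF2 was at -0.04 against parent (limma adjusted p = 0.565) and higher with NC-1 than in parent cells (0.24, limma adjusted p = 0.0174). IRF3, which can act on IFIT promoters directly, was at 0.04 against parent (limma adjusted p = 0.510). With NC-1 against parent, limma called 5 of the 8 genes higher and 0 lower (median 0.22), beside 12.1% and 15.1% of all tested genes. After the rescaling it again called 5 of the 8 higher, beside 16.6% of all tested genes.

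All 4 feedback genes, which restrain interferon signaling, were called higher against parent (median 1.5), and 3 of them, without SOCS1, against NC-1 (median 1.49). Over all tested genes these shares were 18.7% and 18.4%. USP18 had the largest change among the 4 feedback genes, 9.12-fold against parent (limma adjusted p = 6.78e-06). SOCS1 was 1.36-fold higher than in parent cells (limma adjusted p = 0.0453). With NC-1 against parent, limma called 1 of the 4 higher, beside 12.1% of all tested genes. It was USP18, at 1.52-fold (limma adjusted p = 0.0262).

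The 20 other antiviral effectors were all tested. Limma called 19 of them higher and 0 lower in both comparisons with miR-4711-5p. Of all tested genes it called 18.7% higher against parent and 18.4% against NC-1. The median of the 20 was 1.51 on the log2 scale relative to parent and 1.18 relative to NC-1. The medians of the 4 IFIT genes were 1.81 and 1.57. Against parent the largest change of the list was in IFI6, an antiviral membrane protein, at 71.4 and 59.3 FPKM in parent cells, 99.8 and 94.3 FPKM with NC-1 and 753 and 640 FPKM with miR-4711-5p. The 3 groups did not overlap, and IFI6 was 10.7-fold higher than in parent cells (limma adjusted p = 3.30e-06), beside the 7.82-fold of IFIT1. Against NC-1 it was 7.18-fold higher (limma adjusted p = 5.74e-06), beside the 7.35-fold of IFIT1 and the 7.83-fold of MX1. With NC-1 against parent, limma called 11 of the 20 higher (median 0.24), beside 2 of the 4 IFIT genes (median 0.16) and 12.1% of all tested genes. After the rescaling it called 13 of the 20 higher, beside 2 of the 4 IFIT genes and 16.6% of all tested genes. No difference between these lists was tested.

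**Figure D5:**
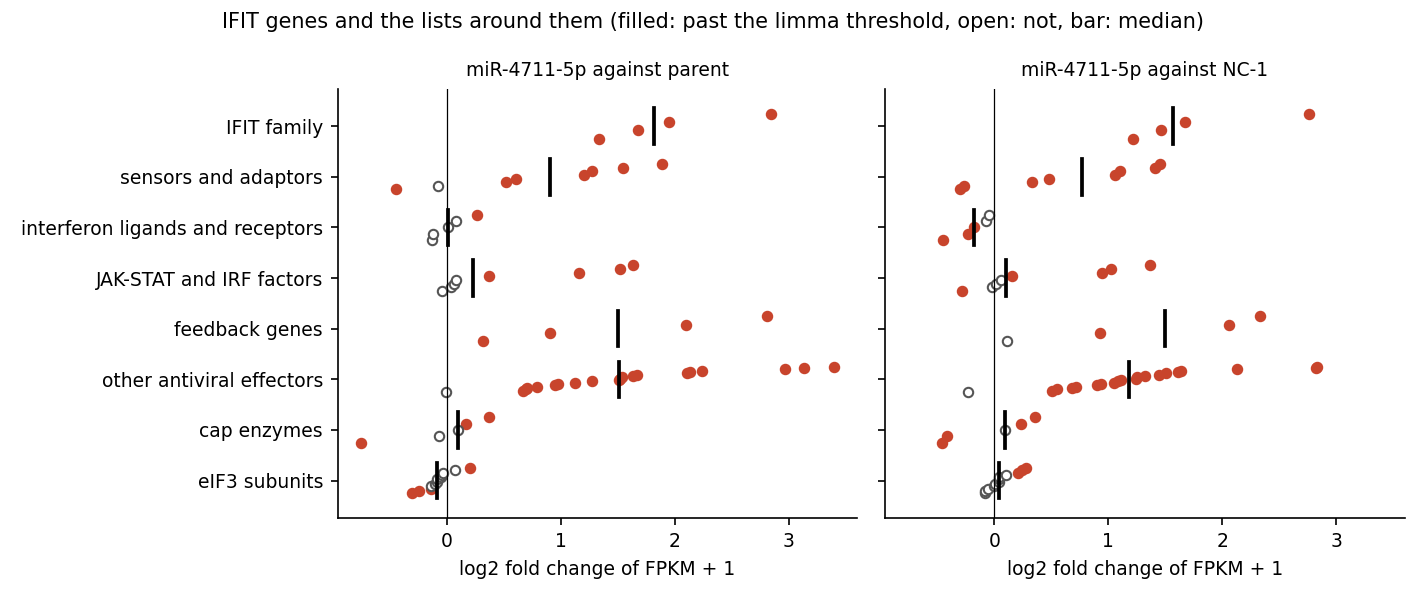
Log2 fold change of every tested gene in the IFIT family and the lists of related genes, for miR-4711-5p against parent (left) and against NC-1 (right), with filled points for genes past the limma threshold, open points for the others and a bar for the median. Against parent the IFIT median is 1.81, that of the other antiviral effectors 1.51 and that of the eIF3 subunits -0.09.

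The partners of IFIT action, the RNA cap and the initiation factor eIF3, were mixed. Of the 5 cap enzymes, limma called 2 higher (CMTR1 and FAM103A1) and 1 lower (RNGTT) against parent, with a median of 0.10. Against NC-1 it called 2 higher and 2 lower. Over all tested genes, 18.7% were called higher and 24.7% lower against parent, and 18.4% and 21.2% against NC-1. CMTR1 writes the cap-adjacent methyl mark whose absence IFIT1 recognizes, and it measured 21.7 and 21.9 FPKM in parent cells, 22.3 and 21.5 FPKM with NC-1 and 29.6 and 27.2 FPKM with miR-4711-5p. Both miR-4711-5p libraries were above the 4 others, by 1.30-fold against parent (limma adjusted p = 0.00198). RNGTT, which adds the cap, was at 0.539 of the parent level (limma adjusted p = 0.000398) and at 0.682 of the NC-1 level (limma adjusted p = 0.00398). It was already at 0.791 of the parent level with NC-1 (limma adjusted p = 0.0347, where 15.1% of all tested genes were called lower). After the rescaling, limma called 0 cap enzymes lower with NC-1 against parent.

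Of 13 subunits of eIF3, the translation factor that human IFIT1 and IFIT2 can bind, 12 were tested. Against parent limma called 1 higher and 3 lower (median -0.09), and against NC-1 3 higher and 0 lower (median 0.04). These shares stand beside 18.7% called higher and 24.7% called lower against parent, and 18.4% and 21.2% against NC-1, over all tested genes. Against parent the log2 fold changes ran from -0.30 in EIF3G (limma adjusted p = 0.00349) to 0.20 in EIF3J (limma adjusted p = 0.0156), and against NC-1 from -0.08 to 0.27. After the rescaling limma called 2 higher and 1 lower against parent. EIF3E, a subunit that IFIT proteins contact, was at -0.09 (limma adjusted p = 0.133). EIF3C was listed at 0.0182 to 0.0380 FPKM in all libraries and was not tested, and a near-identical copy of the gene can take up its reads.

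The cells kept the markers of an epithelial cancer line in all 6 libraries. The epithelial markers KRT7, KRT8, KRT18, KRT19, EPCAM and CLDN4 were between 91.6 and 1842 FPKM, and SMAD4, which is deleted in BxPC-3, was listed at 0 in every library. Of 9 blood cell markers, PTPRC, TYROBP, CD53, CD37 and the markers LILRA4 and CLEC4C of interferon-producing dendritic cells were between 0 and 0.139 FPKM. The monocyte marker CD14 was between 0.897 and 2.18 FPKM. LAPTM5 and CORO1A carried nearly all of the summed blood list, which was 293 to 295 FPKM in parent cells, 319 to 320 FPKM with NC-1 and 178 to 180 FPKM with miR-4711-5p, and both were called lower with miR-4711-5p. The 5 fibroblast markers summed to between 1.30 and 2.45 FPKM. The part of these 2 genes or of CD14 in the IFIT result was not tested.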

How the data were processed

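Each library has 1 deposited file of FPKM by gene symbol, in which the authors scaled fragments by exon length and library size. Per the submitters' processing notes they used TopHat2 2.1.1, Bowtie2 2.3.5.1, SAMtools 1.2, Cufflinks 2.2.1 and Cuffdiff on hg19 (GRCh37). The methods of the paper give other versions for part of these, name Cuffnorm for the FPKM, and describe single-end, strand-specific libraries. The annotation, the strand option and the library normalization option are not given in the sources used here.

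Genes that averaged 1 FPKM or more (12040) were tested on log2(FPKM + 1) with limma 3.58.1 in R 4.3.3 (eBayes with trend, 3 groups in one fit, 3 residual and 4.15 prior degrees of freedom, two-sided, Benjamini-Hochberg adjusted over all tested genes at 0.05). Simulated data with known changes were used to test this step. Count models were not used, since FPKM are not counts. Other steps used Python 3.11.15, numpy 2.4.6, pandas 2.3.3, scipy 1.17.1 and matplotlib 3.10.9. Ratios were compared by exact permutation tests. Depth was estimated only relative to parent 1, from the most common ratio of low values to those of parent 1. Outside parent 1, between 29.1% and 37.0% of the genes used lay near that ratio, so the estimate is rough.

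The members and gene lists were chosen with earlier results of these data known. Named genes were the members, the 3 most similar profiles to each, the largest increase and decrease of each list, and IFIT1B, CH25H, LIPA, STAT2, IRF9, DDX58, IFIH1, IFNB1, IFNL1, CMTR1, EIF3E and EIF3C. MAVS, IFNAR2, IL10RB, JAK1, IRF3, SOCS1, FAM103A1 and FAS were named after their values were seen, to complete small counts or as background. Some genes that this rule takes are not reported here. Transcripts were the GRCh37 lift of GENCODE v44, which is later than the annotation behind the values, with the canonical transcript of each gene. The main fit did not pair libraries by replicate number, since same-numbered libraries did not deviate together over all tested genes. Alternatives were other pseudocounts, filters, scalings and variance models, a replicate block, and leaving out each library. The rescaling by the median ratio over genes that averaged 10 FPKM or more was chosen after seeing the data.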

Additional observations from a re-analysis of the deposited data

How the results depend on the processing

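All 4 IFIT genes kept their direction and passed the threshold in the 15 alternatives of both comparisons with miR-4711-5p. Against parent the log2 fold change ran from 2.46 to 2.95 in IFIT1, 1.5 to 1.76 in IFIT2, 1.82 to 2.04 in IFIT3 and 0.95 to 1.47 in IFIT5 (highest limma adjusted p 0.00182). Against NC-1 the ranges were 2.41 to 2.87, 1.32 to 1.54, 1.57 to 1.77 and 0.88 to 1.34 (highest limma adjusted p 0.00290). For NC-1 against parent the call was lost in 8 of 15 alternatives in IFIT2 (limma adjusted p 0.0207 to 0.140 over all) and 10 of 15 in IFIT3 (0.0261 to 0.195), and IFIT5, not called in the full data, ran from -0.00395 without parent 1 to 0.23 without parent 2. The cause was not tested.

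The counts of all called genes, 5230 and 4763 for miR-4711-5p against the parent and NC-1 groups and 3279 for NC-1 against parent, ran from 3164 to 5135, 2815 to 4639 and 1355 to 2296 with 1 library left out, the lowest without miR-4711-5p 1, miR-4711-5p 1 and parent 1. The counts also moved by over 1.5 times to 2991 for miR-4711-5p against NC-1 without miR-4711-5p 2 and, for NC-1 against parent, 2154 without parent 2, 1591 without NC-1 1 and 1944 without NC-1 2. The lone sample of a group was then assumed to vary like the others. Without a filter the last count was 2165, with more genes tested. Rescaling over genes of at least 10 FPKM moved the share of calls that were higher from 43.1% to 57.2% against parent, from 46.5% to 49.8% against NC-1 and from 44.4% to 62.4% for NC-1 against parent.

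Same-numbered libraries did not deviate together over all tested genes (r = 0.06, 0.003 and -0.009), and the main fit did not pair them. These correlations cannot show whether same-numbered libraries were prepared together, which the labels do not say. With a replicate block the counts were 4983, 4564 and 2864, and the NC-1 against parent calls of IFIT2 (limma adjusted p = 0.0518) and IFIT3 (0.0652) were lost. FPKM keep no read numbers, which limits what can be said of genes under 1 FPKM.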
